A study of Homo sapiens with 8 samples.

Results

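The hypoxia response genes described here are 10 genes chosen by name: the hypoxia-inducible factor (HIF) subunits HIF1A, EPAS1 and ARNT, and the HIF targets VEGFA, ADM, P4HA1, BNIP3, NDRG1, EGLN3 and CA9. They were found by symbol and Ensembl identifier among 78932 genes in the count tables, and all 10 were present. RNA came from HCT116, an established human colorectal cancer line, that carries a degradation tag on NUDT21 (dTAG-NUDT21). Its product is part of cleavage factor Im (CFIm), which binds UGUA in nascent RNA upstream of poly(A) sites. One group of 4 libraries came from cells given DMSO, the solvent, and JTE-607, an inhibitor of the pre-mRNA nuclease CPSF73. The other 4 came from cells given dTAGV1, a degrader compound for proteins with that tag, and JTE-607. Both groups thus share the tagged line and JTE-607, and cells without JTE-607 were not analysed here. Doses, times, oxygen tension and whether the line is a single clone are not given in the labels. Nothing in the labels says that replicates came from separate cultures, so the p-values measure only the spread between these libraries, which may be technical.

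HIF is a pair of proteins: an oxygen-regulated alpha subunit, encoded by HIF1A or EPAS1, and the constant partner encoded by ARNT. With oxygen present, prolyl hydroxylases such as EGLN1 and EGLN3 mark the alpha subunit, and the VHL ubiquitin ligase then sends it to degradation, so that HIF activity is set mainly at the protein level. Without oxygen the pair accumulates, binds ACGTG or GCGTG near its targets, and raises genes of angiogenesis, glycolysis, mitophagy, pH control and collagen modification. In colorectal tumours these targets are used as markers of poorly oxygenated regions. Protein was not measured in these libraries.

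The letters that HIF binds were looked up first, since they are the feature by which the targets are known. The motifs ACGTG and GCGTG were searched on both strands of RefSeq promoters (GRCh38.p14), from 250 bases before to 50 bases after the start of each gene. A palindromic CACGTG counts as 2 overlapping matches, 1 per strand. Of the 10 genes, 8 had a promoter in the table (VEGFA and NDRG1 did not), and 6 of these 8 (75.0%) held at least 1 match. The share was 64.0% among 9230 promoters of tested genes and 48.4% among 27305 promoters in all. BNIP3 had 6 matches, HIF1A, EPAS1, ADM, CA9 and P4HA1 had 1 each, and ARNT and EGLN3 had none in this window. The stretches that hold these matches are shown with the matches in capitals, on the strand of the gene.
HIF1A, chr14:61695299-61695323, plus strand: gctgagagcgGCGTGggctggggtg
EPAS1, chr2:46297280-46297304, plus strand: gcctgccggcGCGTGcccgcccaca
ADM, chr11:10304962-10304986, plus strand: gcaggagcgcGCGTGgctgaggaaa
CA9, chr9:35673900-35673924, plus strand: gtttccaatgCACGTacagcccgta
P4HA1, chr10:73096938-73096962, minus strand: tgatcgagctCACGTagcgagggct
BNIP3, chr10:131982023-131982073, minus strand: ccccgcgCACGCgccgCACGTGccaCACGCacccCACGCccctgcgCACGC
A match describes letters in a window and is not evidence of binding, and RefSeq starts can differ from the GENCODE gene starts given below.

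The other sequence of interest is the one that cleavage factor Im recognises, TGTA in the DNA. On the transcript strand, TGTA was present in the last 100 bases of the GENCODE 29 transcript chosen for 7 of the 10 genes, against 55.6% of 10637 tested genes with a protein-coding transcript. A poly(A) signal, AATAAA or ATTAAA, was present there for 7 of the 10 and for 80.9% of the tested genes. In 4 of the 10, both elements lay within 30 bases: HIF1A and EPAS1, which rose, NDRG1, which fell, and BNIP3, which did not pass the test. The share of tested genes with both elements this close was not counted, so 4 of 10 has no background to be read against. The 30 bases are printed for 3 of these 4 genes, with TGTA and the signal in capitals, and the sequence of NDRG1 is not shown.
HIF1A, chr14:61748213-61748242, plus strand: acTGTAttgttttgttacatcaAATAAAca
EPAS1, chr2:46386654-46386683, plus strand: aaTGTAttttgacactggtatcttATTAAA
BNIP3, chr10:131966467-131966496, minus strand: atTGTAacattagacattttATTAAAaatg
The starts of the 2 elements lay 20, 22 and 18 bases apart in HIF1A, EPAS1 and BNIP3. The ends actually used in these cells were not read from the count tables, which hold 1 number per gene.

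Libraries held 8649238 to 9977205 reads, of which 3447842 to 4291256 were counted on the strand of a gene. Unmapped reads made up 27.7% to 28.9% of reads with DMSO and 20.4% to 30.3% with dTAGV1, lowest in dTAGV1 replicate 4. What this unevenness does to the values below was not tested. Values are given as counts per 1000000 counts (CPM), scaled between libraries by the trimmed mean of M-values (TMM). The kit takes 1 read near the 3′ end of each transcript, so no length correction was made. NUDT21, the tagged gene, had 104, 139, 131 and 129 counts in DMSO replicates 1 to 4, and 34, 29, 15 and 43 with dTAGV1, a log2 fold change of -1.95 (SE 0.18, edgeR, Benjamini-Hochberg adjusted p = 1.36e-09). Of the epithelial markers, EPCAM, CDH1, KRT8, KRT18, KRT19 and CDX2 were detected, whereas VIL1 and LGALS4 had means under 1 CPM. The epithelial markers summed to 1575 to 1831 CPM with DMSO and 1253 to 1353 CPM with dTAGV1, with KRT18 and KRT19 lower and EPCAM higher. Leukocyte markers summed to at most 2.83 CPM. The 7 fibroblast and endothelial markers summed to 17.6 to 22.4 CPM with DMSO and 11.8 to 16.7 CPM with dTAGV1, of which COL1A1 made up most, and DCN was at 0 in all 8. Reads that lay on no gene of the counted strand made up 30.1% to 33.7% of uniquely mapped reads with DMSO and 35.9% to 37.4% with dTAGV1. Reads that fit more than 1 gene were in that total but not in this share. Mitochondrial genes took 7.98% to 8.56% of counts with DMSO and 9.22% to 10.4% with dTAGV1. The part of these shifts in the results below was not tested. With mitochondrial genes left out of the table, the members' calls were again 4 higher and 2 lower.

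Of the 10 genes, 9 had enough counts to be tested and 6 differed between the groups: 4 were higher with dTAGV1 (P4HA1, EPAS1, VEGFA, HIF1A) and 2 were lower (NDRG1, ARNT). ADM, BNIP3 and EGLN3 did not pass the threshold, and CA9 was barely detected. A call here means an adjusted p under 0.05 in edgeR's quasi-likelihood test, adjusted over all 12618 tested genes. In the same comparison 57.9% of all tested genes were called, 29.4% higher and 28.5% lower, so 6 of 9 is near the background. The median log2 fold change was 0.10 over the 9 genes and 0.01 over all tested genes. Groups did not overlap in CPM for those same 6 genes, where the share over all tested genes was 50.9%. The RNA was extracted from whole cultures, in which fewer cells expressing a gene and less RNA per cell cannot be told apart.

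**Figure D1:**
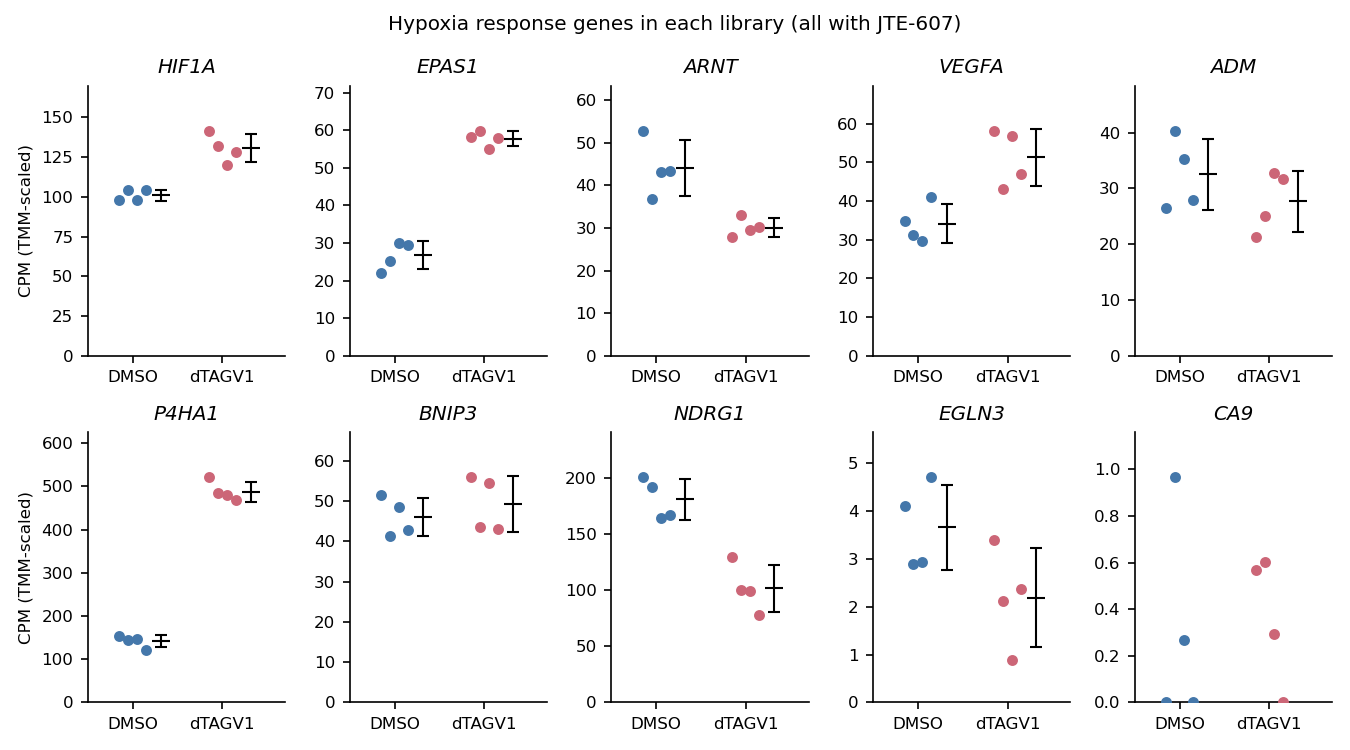
CPM (TMM-scaled, linear axes from 0, 1 scale per panel) of the 10 genes in each library, with DMSO in blue and dTAGV1 in red, and the mean ± SD of 4 libraries in black (none drawn for CA9, which has too few counts). The groups are apart for HIF1A, EPAS1, ARNT, VEGFA, P4HA1 and NDRG1 and overlap for ADM, BNIP3, EGLN3 and CA9.

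All 3 HIF subunits were called, where 57.9% of all tested genes were, the alpha subunits as higher and the shared partner as lower. HIF1A (ENSG00000100644; GRCh38 chromosome 14, 61695513 to 61748259, plus strand, protein-coding) encodes the alpha subunit found in most cells. It had 358, 432, 367 and 421 counts with DMSO and 499, 438, 408 and 542 with dTAGV1, for the 4 replicates in order. After scaling, the lowest dTAGV1 library stood at 120 CPM and the highest DMSO library at 104 CPM. The group means were 101 ± 3.62 and 131 ± 8.84 CPM (SD, n = 4 each), which gives a log2 fold change of 0.37 with an SE of 0.08 (edgeR, Benjamini-Hochberg adjusted p = 0.000281). This is the smallest change among the 6 called genes, and against a fold change of 1.2 rather than 0 it no longer passed (adjusted p = 0.0675). HIF1A overlaps AL137129.1 on its own strand in GENCODE 29, so reads in the overlap may have been counted to neither gene.

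EPAS1 (ENSG00000116016; chromosome 2, 46293667 to 46386703, plus strand, protein-coding) encodes HIF-2 alpha, the other oxygen-regulated subunit. Counts were 81, 105, 113 and 119 with DMSO against 205, 198, 187 and 245 with dTAGV1. The lowest dTAGV1 library was at 55.1 CPM and the highest DMSO library at 30.15 CPM. EPAS1 rose from 26.8 ± 3.74 to 57.7 ± 1.96 CPM (SD, n = 4 each), which gives a log2 fold change of 1.11 with an SE of 0.11 (edgeR, Benjamini-Hochberg adjusted p = 7.77e-09). No gene overlaps it in GENCODE 29.

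ARNT (ENSG00000143437; chromosome 1, 150809705 to 150876768, minus strand, protein-coding), the partner of both alpha subunits, moved the other way. It had 193, 153, 162 and 175 counts with DMSO and 98, 109, 100 and 128 with dTAGV1. DMSO replicate 1 was the highest library, at 52.7 CPM, and the remaining DMSO libraries at 36.9 to 43.3 CPM were still above all dTAGV1 libraries. ARNT fell from 44.0 ± 6.53 to 30.1 ± 2.15 CPM (SD, n = 4 each), with a log2 fold change of -0.55 and an SE of 0.12 (edgeR, Benjamini-Hochberg adjusted p = 0.000434).

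Ratios of counts within a library need no scaling between libraries, and they show how far the subunits moved relative to each other. For each HIF1A read there were 0.263 EPAS1 reads with DMSO and 0.443 with dTAGV1 (geometric means, n = 4 each), with no overlap between the groups. HIF1A reads per ARNT read rose from 2.31 to 4.34. The log2 differences were 0.75 and 0.91 (2-sided exact permutation test, p = 0.0286 each, n = 4 each, the smallest this design can give, and 0.0327 after Benjamini-Hochberg adjustment over 8 ratios). EPAS1 reads per ARNT read rose from 0.608 to 1.92 (exact permutation p = 0.0286, adjusted 0.0327, n = 4 each). The 8 ratios were chosen after the values of the genes were seen. HIF1A and EPAS1 were already apart upward in CPM, and ARNT downward. Scaling cancels in a ratio, so HIF1A and EPAS1 over ARNT had to separate, and their p-values add nothing to the calls. All 8 ratios are of read counts, and 3′ end capture differs between genes, so their level within a group is not interpretable. Whether capture of a gene also differed between the groups, as with a change of the 3′ end used, was not tested. The same limit holds for the fold changes of single genes.

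**Figure D2:**
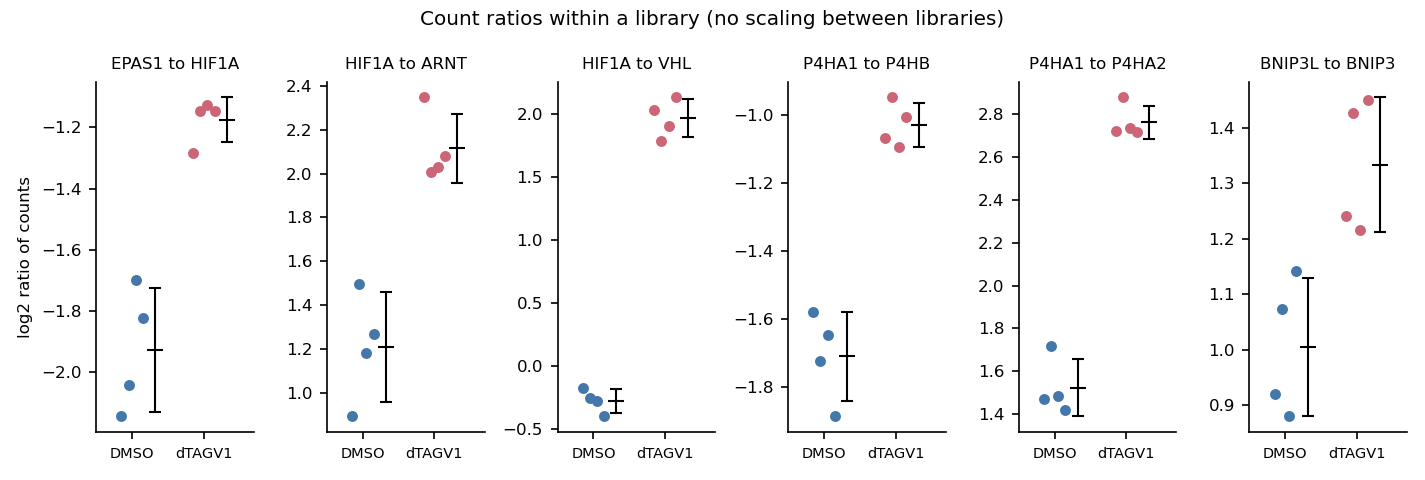
The log2 ratio of counts of 2 genes within each library, for 6 of the 8 ratios, with points for the 4 DMSO (blue) and 4 dTAGV1 (red) libraries and the mean ± SD in black. Each panel has its own axis, and in all 6 panels the dTAGV1 libraries lie above the DMSO libraries. Not drawn are EPAS1 to ARNT, which also rose (1.66), and NDRG1 to NDRG3, which fell (-0.70) with groups that overlap.

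Among the genes that act on the alpha subunits, the 6 with enough counts were called and the prolyl hydroxylases were not. VHL (ENSG00000134086; chromosome 3, 10141008 to 10152220, plus strand, protein-coding), the substrate receptor of the ligase that removes hydroxylated HIF alpha, had the largest change in this group. Its counts were 404, 515, 446 and 557 with DMSO and 122, 127, 109 and 124 with dTAGV1, with no overlap in CPM. VHL fell from 123 ± 11.5 to 33.6 ± 3.84 CPM (SD, n = 4 each), which gives a log2 fold change of -1.88 with an SE of 0.10 (edgeR, Benjamini-Hochberg adjusted p = 1.37e-13). HIF1A reads per VHL read accordingly went from 0.825 to 3.90 (exact permutation p = 0.0286, adjusted 0.0327, n = 4 each). This ratio too had to separate, since HIF1A was already apart upward in CPM and VHL downward.

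HIF1AN, the asparaginyl hydroxylase that blocks coactivator binding to HIF alpha, fell from 84.3 ± 4.77 to 57.0 ± 5.38 CPM (SD, n = 4 each; log2 fold change -0.57). The subunits of the VHL ligase did not move together. CUL2, its scaffold, rose (0.50) and so did the adaptor ELOB (0.29), whereas the RING protein RBX1 fell (-0.32). ELOC, the other adaptor, was lower by a log2 fold change of -0.20 (edgeR, Benjamini-Hochberg adjusted p = 0.0328), with groups that overlap. The call of ELOC was lost when DMSO replicate 2, 3 or 4, or else dTAGV1 replicate 1 or 2, was left out, at adjusted p-values of 0.0502 to 0.119. Of the 8 genes fixed for oxygen sensing and HIF turnover, 6 were tested, and 2 were higher and 4 lower, where 57.9% of all tested genes were called, 29.4% higher and 28.5% lower. Against a fold change of 1.2, 3 of the 6 calls were left, since ELOB, RBX1 and ELOC lost theirs (adjusted p = 0.272, 0.187 and 0.659). Of all 12618 tested genes, 5317 were called at that setting. EGLN1 and EGLN2, the main prolyl hydroxylases, had 35 and 2 counts in all 8 libraries together and were not tested. EGLN2 overlaps RAB4B-EGLN2 and AC008537.1 on its own strand, so its reads may be among those counted to no gene.

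Of the 5 other HIF subunits and coactivators, 4 were tested, 3 rose and none fell, where 29.4% of all tested genes were higher and 28.5% lower. CITED2, which competes with HIF alpha for p300 and is itself induced by HIF, rose from 18.8 ± 0.974 to 58.5 ± 10.4 CPM (SD, n = 4 each). That is a log2 fold change of 1.63 with an SE of 0.13 (edgeR, Benjamini-Hochberg adjusted p = 1.36e-10). CREBBP and EP300, the acetyltransferases that HIF recruits, had log2 fold changes of 0.61 and 0.51, with no overlap between groups. ARNT2, a relative of ARNT, was near 3 CPM in both groups (log2 fold change 0.03, interval -0.67 to 0.73), and HIF3A had 2 counts in all.

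**Figure D3:**
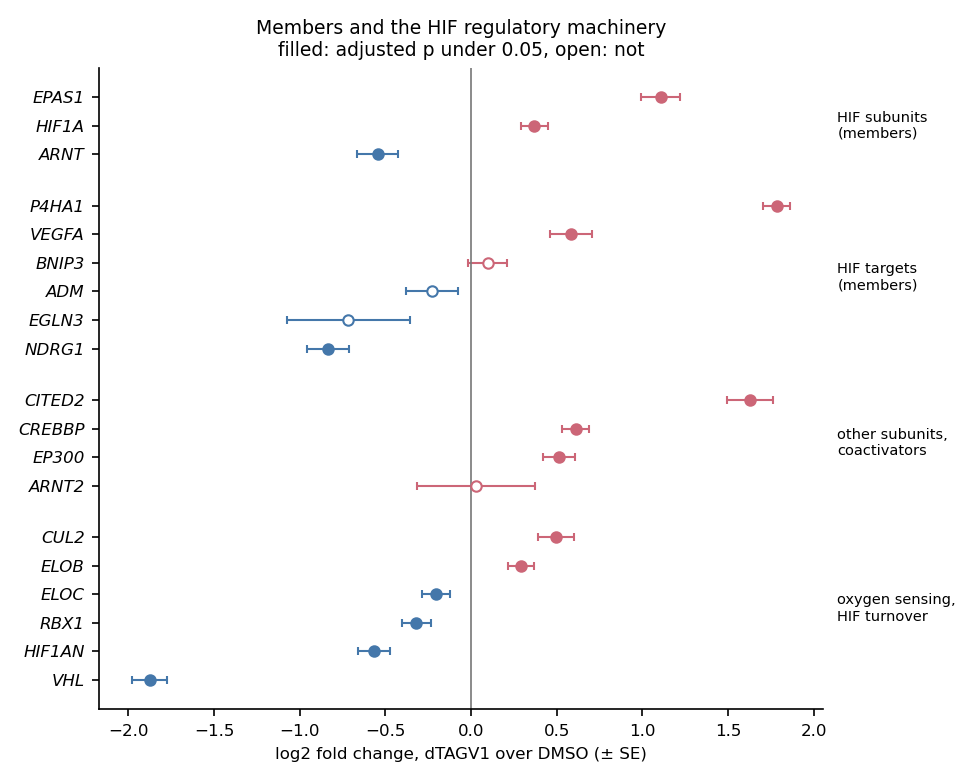
The log2 fold change (dTAGV1 over DMSO) with its SE for the 9 tested members, the other subunits and coactivators, and the genes of oxygen sensing and HIF turnover. Filled points have an adjusted p under 0.05. P4HA1 lies farthest to the right at 1.79 and VHL farthest to the left at -1.88.

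Of the 7 HIF targets among the members, P4HA1 and VEGFA rose, NDRG1 fell, and the other 4 did not pass or were not tested. Thus 3 of the 6 tested were called (50%), where 57.9% of all tested genes were. Their median log2 fold change was -0.07. P4HA1 (ENSG00000122884; chromosome 10, 73007217 to 73096974, minus strand, protein-coding) encodes the catalytic alpha subunit of collagen prolyl 4-hydroxylase. It had 560, 602, 548 and 492 counts with DMSO and 1836, 1601, 1626 and 1976 with dTAGV1. The lowest dTAGV1 library, at 467 CPM, was far above the highest DMSO library, at 153 CPM. P4HA1 rose from 142 ± 13.7 to 488 ± 22.9 CPM (SD, n = 4 each), or 3.45-fold. Its log2 fold change was 1.79 with an SE of 0.08 (edgeR, Benjamini-Hochberg adjusted p = 2.80e-15).

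The enzyme that P4HA1 belongs to is a tetramer with P4HB, which is also the disulfide isomerase PDI. P4HB rose as well, from 461 ± 12.6 to 996 ± 75.4 CPM (SD, n = 4 each), which gives a log2 fold change of 1.11 (edgeR, Benjamini-Hochberg adjusted p = 1.25e-12). P4HA2, the alternative alpha subunit, rose by less (0.55). P4HA1 thus gained on both: its reads per P4HB read went from 0.306 to 0.490 and its reads per P4HA2 read from 2.87 to 6.78 (exact permutation p = 0.0286, adjusted 0.0327 for each, n = 4 each). The lysyl hydroxylase PLOD1, which modifies collagen in the same compartment, rose from 102 ± 10.4 to 212 ± 3.71 CPM (SD, n = 4 each; log2 fold change 1.05). Its relative PLOD2 rose by 0.24 (edgeR, Benjamini-Hochberg adjusted p = 0.0491).

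VEGFA (ENSG00000112715; chromosome 6, 43770184 to 43786487, plus strand, protein-coding) encodes the main angiogenic growth factor. Its counts were 128, 129, 111 and 166 with DMSO and 205, 143, 193 and 199 with dTAGV1. The gap between groups was narrow, from 41.05 CPM in DMSO replicate 4 to 43.2 CPM in dTAGV1 replicate 2. VEGFA rose from 34.2 ± 5.10 to 51.3 ± 7.32 CPM (SD, n = 4 each), with a log2 fold change of 0.58 and an SE of 0.12 (edgeR, Benjamini-Hochberg adjusted p = 0.000255).

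ADM (ENSG00000148926; chromosome 11, 10304680 to 10307397, plus strand, protein-coding) encodes the vasodilator peptide adrenomedullin. It had 97, 167, 132 and 113 counts with DMSO and 75, 83, 111 and 134 with dTAGV1. The libraries of each group were spread widely and overlapped, at 26.5 to 40.3 CPM and 21.3 to 32.7 CPM. Its log2 fold change was -0.23 (95% interval -0.54 to 0.09, edgeR, Benjamini-Hochberg adjusted p = 0.205), so the data do not fix a direction. VEGFA and ADM, the secreted products among the members, therefore gave a call in 1 case and none in the other.

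NDRG1 (ENSG00000104419; chromosome 8, 133237171 to 133302022, minus strand, protein-coding) is a cytoplasmic protein of differentiation and stress that hypoxia strongly induces in many cell types. Counts fell from 735, 798, 616 and 678 with DMSO to 458, 332, 337 and 331 with dTAGV1. The dTAGV1 libraries ranged more widely than the DMSO libraries relative to their mean, with 130 CPM in replicate 1 and 78.3 CPM in replicate 4, and none reached the lowest DMSO library at 164 CPM. NDRG1 fell from 181 ± 18.1 to 102 ± 21.2 CPM (SD, n = 4 each), which gives a log2 fold change of -0.84 with an SE of 0.12 (edgeR, Benjamini-Hochberg adjusted p = 1.72e-05). Relative to NDRG3 in the same library, the groups overlapped (exact permutation p = 0.0571, adjusted 0.0571, n = 4 each).

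BNIP3 (ENSG00000176171; chromosome 10, 131966455 to 131982013, minus strand, protein-coding) is a mitophagy receptor of the outer mitochondrial membrane. Counts were 188, 171, 182 and 173 with DMSO and 197, 144, 185 and 182 with dTAGV1. The groups overlapped, at 41.2 to 51.4 CPM with DMSO and 43.0 to 55.8 CPM with dTAGV1, with means of 45.99 ± 4.78 and 49.2 ± 6.89 CPM (SD, n = 4 each). The log2 fold change of BNIP3 was 0.10 with a 95% interval of -0.14 to 0.33 (edgeR, Benjamini-Hochberg adjusted p = 0.478). BNIP3 has 44 named pseudogenes in the tables, all at 0 counts, and reads that fit both may be in the total of reads on more than 1 locus. Its relative BNIP3L, also a mitophagy receptor, rose by 0.42 (edgeR, Benjamini-Hochberg adjusted p = 7.54e-05), and BNIP3L reads per BNIP3 read went from 2.01 to 2.52 (exact permutation p = 0.0286, adjusted 0.0327, n = 4 each).

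EGLN3 (ENSG00000129521; chromosome 14, 33924231 to 34462774, minus strand, protein-coding) is the prolyl hydroxylase that HIF induces as feedback. It had 15, 12, 11 and 19 counts with DMSO and 12, 7, 3 and 10 with dTAGV1, which overlap. At this depth the log2 fold change of -0.72 had an SE of 0.36 and did not pass (edgeR, Benjamini-Hochberg adjusted p = 0.0898). Without dTAGV1 replicate 1 it was -0.998 and passed (adjusted p = 0.0367), so 1 library decides that call. CA9 (ENSG00000107159; chromosome 9, 35673856 to 35681159, plus strand, protein-coding), the tumour carbonic anhydrase often used as a marker of hypoxia, had 0, 4, 1 and 0 counts with DMSO and 2, 2, 1 and 0 with dTAGV1. With 5 counts in each group, no difference was detectable at this depth.

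A wider list of 44 other HIF targets, written from general knowledge, gives the background of the pathway. Of these, 36 were tested, 18 were higher, 8 were lower and 10 did not pass, so 72.2% were called where 57.9% of all tested genes were. Their median log2 fold change was 0.28, beside 0.01 over all tested genes. The count of lower genes rests on few libraries, since it was 5 in place of 8 without DMSO replicate 3 or 4. Against a stricter null of a 1.2-fold change, 12 were higher and 4 lower. At that setting 5317 of all 12618 tested genes were called, 2616 of them higher. COX4I2, LOX, NDUFA4L2 and RORA had no counts, and ALDOA, ANKRD37, IGFBP3 and VLDLR had too few.

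The largest increase of the wider list was that of BHLHE40, a transcriptional repressor of the clock and of differentiation, from 20.2 ± 7.84 to 66.3 ± 7.95 CPM (SD, n = 4 each; log2 fold change 1.72). Its DMSO libraries were uneven, at 30.9 CPM in replicate 1 and 13.99 to 21.3 CPM in the rest. DDIT4, an inhibitor of mTORC1 that p53 and ATF4 also induce, rose from 28.2 ± 4.90 to 68.9 ± 1.17 CPM (1.29). HK2, the hexokinase of proliferating cells, rose from 8.01 ± 1.45 to 19.6 ± 1.503 CPM (1.29), and PLOD1, described above, followed.

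The largest decrease was that of HIGD1A, a mitochondrial inner membrane protein, which fell from 29.6 ± 1.22 to 5.10 ± 1.72 CPM (SD, n = 4 each; log2 fold change -2.51 with an SE of 0.19, edgeR, Benjamini-Hochberg adjusted p = 4.12e-11). HIGD1A overlaps AC006059.2 and AC099329.1 on its own strand and has 17 named pseudogenes, so its level is uncertain. SLC16A3, the lactate exporter, fell from 125 ± 8.50 to 56.8 ± 7.21 CPM (-1.15). AK4, a mitochondrial adenylate kinase, and WSB1, a ubiquitin ligase subunit, fell by 0.81 and 0.36 on the log2 scale. That the groups did not overlap for these 4 genes follows from the rule that chose them. PFKFB4, a regulator of glycolysis under the CPM minimum for naming, also fell (-1.996) and was chosen after its value was seen.

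HIF targets of glucose metabolism were divided. HK2, PFKFB3 (0.36) and GBE1, the glycogen branching enzyme (0.35), rose. PFKFB4 fell as given above, and SLC2A1, the glucose transporter GLUT1, fell (-0.29, edgeR, Benjamini-Hochberg adjusted p = 0.0209), with groups that overlap. PGK1 (-0.03), ENO1 (-0.14), PDK1 (0.44), SLC2A3 (-0.12) and LDHA (0.12) did not pass, and ALDOA, which overlaps AC093512.2 on its own strand, had too few counts. LDHA was at 7.38 and 8.00 CPM, and it overlaps AC084117.1 on its own strand, so reads may have been counted to neither gene. These genes were grouped after the values were seen, and the grouping carries no test.

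**Figure D4:**
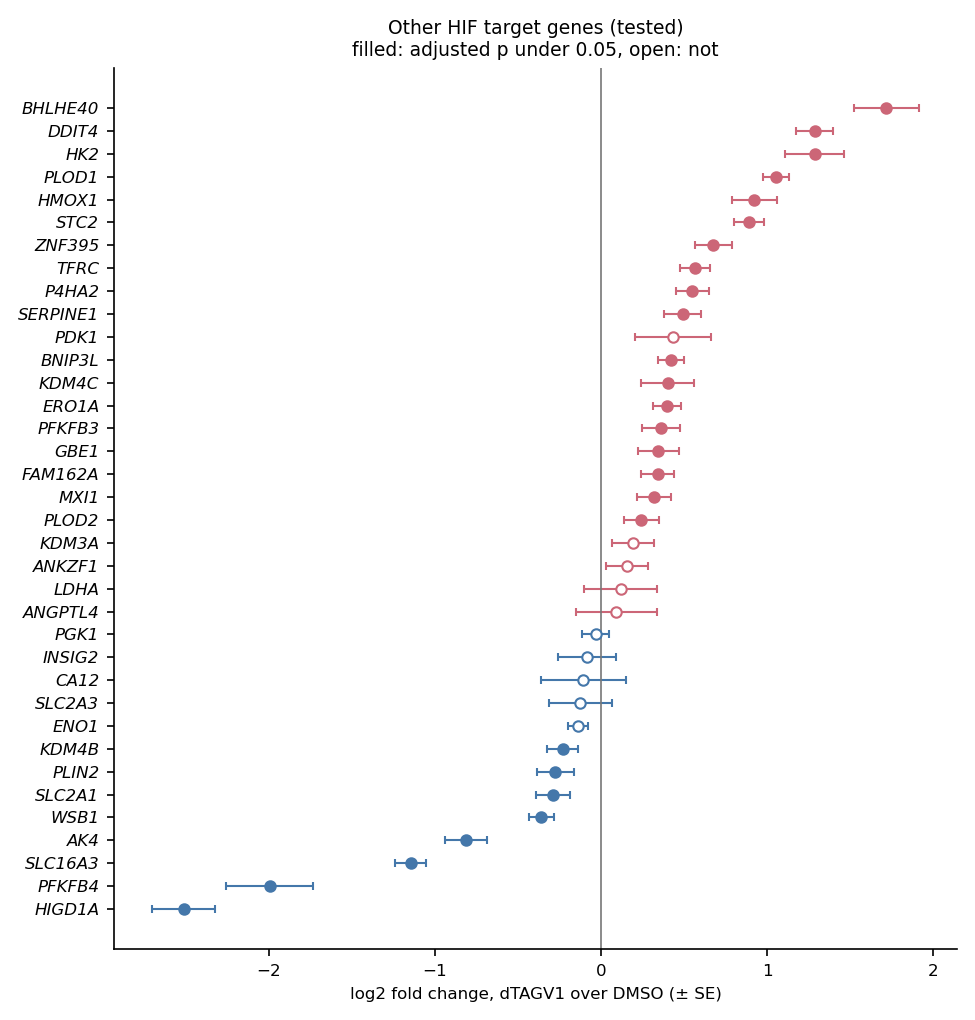
The log2 fold change (dTAGV1 over DMSO) with its SE for the 36 tested genes of the wider list of HIF targets, ordered by value. Filled points have an adjusted p under 0.05: 18 lie to the right of 0 and 8 to the left, from BHLHE40 at 1.72 to HIGD1A at -2.51.

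Across 19 other settings P4HA1 ranged from 1.71 to 1.82 in log2 fold change, EPAS1 from 1.024 to 1.16, VEGFA from 0.51 to 0.68, HIF1A from 0.29 to 0.39, ARNT from -0.63 to -0.45 and NDRG1 from -0.98 to -0.74. ADM and BNIP3 stayed short of the threshold in all 19, at -0.32 to -0.11 and 0.02 to 0.15. EGLN3 spread from -0.998 to -0.49 over the 18 settings that tested it and passed in 1, and HIF1A missed the threshold in 1, against a fold change of 1.2. The lowest value of HIF1A was that under scaling by library size alone.

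**Figure D5:**
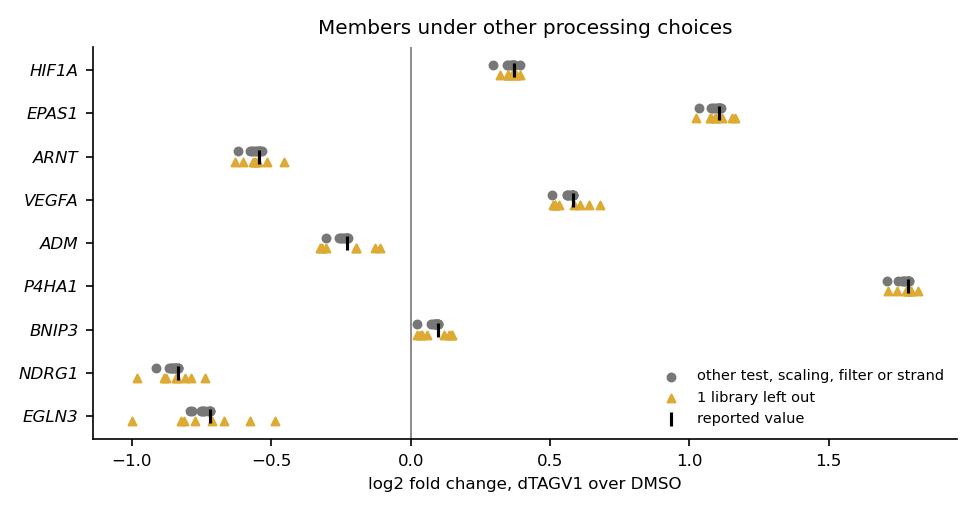
The log2 fold change (dTAGV1 over DMSO) of the 9 tested members as reported (black bar), under another test, scaling, filter or strand choice (grey circles) and with 1 library left out (yellow triangles). No point crosses 0 for any of the 9, and EGLN3 spreads most, from -0.998 to -0.49.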

How the data were processed

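Poly(A) RNA of 8 HCT116 libraries, 4 per group, was sequenced from transcript 3′ ends with the Lexogen QuantSeq forward kit, per the labels' protocols. The authors deposited counts per gene by strand, in the layout of STAR. The submitters' processing notes name FastQC, fastp, STAR, HTSeq, DESeq2 and GRCh38, without versions or roles, and removal of PCR copies is not given in the sources used here. Counts on the strand of the gene were used. Totals of reads given to no gene (56.7% to 62.8% of all reads, unmapped ones included) were left out.

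A reference name table gave symbols, and coordinates and overlaps came from GENCODE 29 (GRCh38), whose release may differ from the authors'. Tests used edgeR 4.0.16 in R 4.3.3 with filterByExpr, TMM, robust quasi-likelihood fits and Benjamini-Hochberg adjustment over 12618 genes at 0.05. SE is the absolute log2 fold change over the square root of F. Simulated counts held 200 changed genes, and 12421 genes were tested. Of 68, 63 and 63 tested genes changed by 0.5, 1 and 1.8 (log2), 63.2%, 92.1% and 100% were recovered, with 8 false calls. In the data 57.9% of tested genes were called, so these rates may not hold there. Alternatives were DESeq2 1.42.0, limma-voom (limma 3.58.1), other scaling, filters, strands, a replicate block, a fold threshold and leaving out libraries. Leaving out mitochondrial genes was added after seeing the data.

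Replicates within a group differed by more than sampling noise (chi-square over its degrees of freedom 1.89 to 5.63). Members and lists were chosen with earlier results of these data known. The genes named are the 10 members, tested genes of 2 regulatory lists, the 4 largest increases and 4 largest decreases of the wider target list (called, at least 10 CPM, groups apart), called relatives of the targets with at least 10 CPM, the 3 genes most like HIF1A, and NUDT21. Others, named after their values were seen, are list members given as context.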

Additional observations from a re-analysis of the deposited data

Results flagged for a closer look

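HIF1A had more reads on its opposite strand with dTAGV1. Of the comparisons above, only the alternative setting that counts reads irrespective of strand can hold them. These reads numbered 2, 6, 2 and 3 in DMSO replicates 1 to 4 and 17, 15, 21 and 20 with dTAGV1, a log2 fold change of 2.43 with an SE of 0.40 (edgeR on opposite-strand counts, Benjamini-Hochberg adjusted p = 6.88e-06). Of 3324 genes tested on their opposite strand, 48.4% were called. HIF1A was the only one of the 10 hypoxia response genes with enough opposite-strand reads to be tested. GENCODE 29 places HIF1A-AS1 and HIF1A-AS2 on that strand. HIF1A-AS3, named in the tables, had 5, 1, 1 and 3 counts with DMSO and 7, 6, 6 and 7 with dTAGV1.

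In 3 of 74 groups of 4 libraries examined, 1 library stood apart from the rest, and chance gives about 1 in 20. ELOB was at 144.5 CPM in dTAGV1 replicate 4 and at 169.4 to 170.7 CPM in the other dTAGV1 libraries. RAMP1 was at 55.3 CPM in dTAGV1 replicate 2 and at 34.6 to 37.6 CPM in the others. ZNF22 was at 77.1 CPM in dTAGV1 replicate 1 and at 67.5 to 68.9 CPM in the others.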

How the results depend on the processing

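Counts of called genes kept within 1.5 times of the reported count in 73 of 76 alternative values. The first exception was 4120 genes in all when a mean of at least 100 counts was required, with fewer genes tested. The others were 16 other HIF targets and 3 oxygen sensing genes against a fold change of 1.2, a stricter question. At that fold threshold 5317 of 12618 tested genes were called in all. The hypoxia members called numbered 5 to 7 throughout. Leaving out 1 library gave 6861 to 7232 genes, 6 to 7 members, 20 to 25 other targets and 5 to 6 oxygen sensing genes. For single genes, 655 values kept their direction and side of the threshold, 14 were weaker and 1 was stronger. The 6 that changed sign were all of ARNT2, which was not called: -0.00766 by limma-voom, -0.0457 with library-size scaling, and -0.244 to -0.0106 in 4 of the 8 fits with 1 library left out, which ran from -0.244 to 0.217 in all. NDRG2 lost its call without DMSO replicate 3 (-0.37, adjusted p = 0.056). Of the named genes, 8 (EGLN3 among them) were not tested under the minimum of 100 counts.

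With a replicate block, 7434 genes were called, 7258 of them shared with the 7302 reported, and the members were again 4 higher and 2 lower. Same-numbered libraries correlated at 0.131, -0.0176, 0.0232 and 0.0340 in their deviations, and 3 of 8 correlated best with their own number, so the numbers were not taken to pair them. Low counts limit EGLN3, CA9, EGLN1 and EGLN2, and genes overlapping on the same strand may add to this for EGLN2 and EGLN3. Intervals cover the spread between these libraries only.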

Other observations

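The partners and relatives of the targets, which act at the receptor or family level, gave 2 genes higher and 3 lower among 8 tested of 16, or 62.5% called where 57.9% of all tested genes were. RAMP1, which pairs with the calcitonin-receptor-like receptor, rose from 20.0 ± 1.94 to 40.7 ± 9.80 CPM (SD, n = 4 each; log2 fold change 1.019, edgeR, Benjamini-Hochberg adjusted p = 2.24e-06). CALCRL, which encodes that receptor, averaged 0.83 CPM over the 8 libraries and was not tested. RAMP2 and RAMP3, the subunits that make that receptor respond to adrenomedullin, had no counts in the 8 libraries. VEGFB fell from 15.1 ± 1.92 to 7.29 ± 1.73 CPM (log2 fold change -1.03), the direction opposite to VEGFA. Of the NDRG1 relatives, NDRG4 fell from 16.4 ± 3.43 to 5.40 ± 0.376 CPM (-1.60), and NDRG2 fell from 27.4 ± 4.78 to 19.9 ± 3.00 CPM (-0.47), the latter with groups that overlap. NDRG3 was at 36.2 and 32.5 CPM and did not pass (-0.15). P4HB, the fifth, is described above.

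Among 9051 genes with a symbol and at least 10 CPM, the profile of HIF1A over the 8 libraries was most like those of MED13, MYH9 and ZNF22. The root mean square differences in centred log2 CPM were 0.0331, 0.0403 and 0.0413. MED13, a subunit of the Mediator kinase module, was at 219 ± 7.10 and 282 ± 10.2 CPM, MYH9, the heavy chain of non-muscle myosin, at 266 ± 3.88 and 337 ± 24.0 CPM, and ZNF22, a zinc finger protein, at 53.6 ± 2.81 and 70.3 ± 4.60 CPM (SD, n = 4 each). The likeness is a description over libraries that share 2 treatments.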
